A study of Mus musculus with 6 samples.

Results

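The 10 genes described here encode proteins of iron uptake (Tfrc, Steap3, Slc11a2), storage (Ftl1, Fth1, Ncoa4), export (Slc40a1, Cp), iron sensing (Ireb2) and mitochondrial import (Slc25a37). They were chosen by name, 1 protein-coding row for each symbol, out of 55335 genes in the count table, and all 10 passed the filter on low counts. The cells were mouse embryonic fibroblasts (MEFs) of wild-type genotype, cultured with 10% serum, the connective tissue cells of the embryo. Confine cells had been seeded on a transwell membrane with pores of 3 μm and were collected after 15 h once they had transmigrated, and Ctrl cells were the parental MEFs. The study compared both groups to find regulators of confined migration. Poly(A) RNA was sequenced in 3 libraries of each group, but Confine replicates 1 and 2 were deposited with identical values throughout and entered as 1 library, called Confine replicate 2 here. This leaves 3 Ctrl libraries and 2 Confine libraries, and nothing in the labels says whether they came from separate cultures, so the p-values measure only the spread between these libraries. The paper's transwell protocol, written for wider pores, put the cells in serum-free medium above medium with serum. The paper does not state whether this held for the 3 μm membranes. Passage through the pores, selection of the cells that transmigrated, culture on the membrane and any difference in serum cannot be told apart.

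Cells take up iron mainly as transferrin bound to the transferrin receptor, reduce it in the endosome and carry it into the cytosol. There it is used, passed to mitochondria for haem and iron-sulfur clusters, stored in ferritin or exported through ferroportin. Iron regulatory proteins tie these steps together: when iron is scarce they bind a short hairpin, the iron responsive element (IRE), in the mRNAs. An IRE in the 5′ untranslated region (UTR) blocks translation of ferritin and ferroportin, while IREs in the 3′ UTR protect the transferrin receptor mRNA from decay. Counts of mRNA can register the second of these effects and do not measure the first.

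The IREs are shown because through them iron itself controls several of these mRNAs. The search took a bulged C, 5 paired bases, the loop CAGTGN (last base not G) and the 5 pairing bases, with G-T pairs allowed, on the transcript strand of annotated UTRs (GENCODE M21, GRCm38). It found 7 windows in 4 of the 10 genes. Each window of 27 bases is printed 5′ to 3′ with the loop in capitals.
Fth1 5′ UTR, chr19:9982733-9982759, plus strand: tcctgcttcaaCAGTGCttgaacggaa
Ftl1 5′ UTR, chr7:45459780-45459806, minus strand: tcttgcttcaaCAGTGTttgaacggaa
Slc40a1 5′ UTR, chr1:45925466-45925492, minus strand: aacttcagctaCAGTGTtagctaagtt
Tfrc 3′ UTR, chr16:32631220-32631246, plus strand: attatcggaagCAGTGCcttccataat
Tfrc 3′ UTR, chr16:32631599-32631625, plus strand: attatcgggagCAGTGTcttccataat
Tfrc 3′ UTR, chr16:32631664-32631690, plus strand: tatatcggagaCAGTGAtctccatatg
Tfrc 3′ UTR, chr16:32631711-32631737, plus strand: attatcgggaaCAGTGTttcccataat
The ferritin windows shared 25 of 27 positions with each other, and 13 each with that of Slc40a1. Among all protein-coding genes with the annotated region, 0.110% (23 of 20916) held such a window in a 5′ UTR and 0.475% (100 of 21045) in a 3′ UTR. The known IRE of Slc11a2 departs from this pattern and was not matched. A match is a match of letters and pairs only.

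Levels are given as normalized CPM, read counts brought to a common library total with TMM factors, and compared between genes only per kb of the principal transcript. Total counts per library lay between 22287210 and 32537550. The ferritin genes stood far above the other members. Ftl1, the ferritin light chain, had a mean level of 7621.0 CPM per kb in Ctrl and 10038.6 in Confine, and Fth1, the heavy chain with the ferroxidase activity, 3224.0 and 3355.8. Ftl1 alone took 0.723% to 1.05% of the counts of a library and ranked between 2 and 6 among all genes. In Ctrl the next levels were Steap3 at 36.8 CPM per kb, Slc11a2 at 22.2, Cp at 16.0, Slc25a37 at 12.1, Tfrc at 5.15, Ncoa4 at 3.90 and Ireb2 at 2.94, with Slc40a1 last at 0.315. The libraries of Tfrc and Ncoa4 overlapped in Ctrl, as did those of Ncoa4 and Ireb2. In Confine the order after the ferritins was Cp at 80.7 CPM per kb, Slc11a2 at 28.4, Slc25a37 at 26.4, Steap3 at 16.5, Ncoa4 at 3.55, Tfrc at 2.91, Ireb2 at 2.90 and Slc40a1 at 0.160. Here the libraries of Slc11a2 and Slc25a37, of Ncoa4 and Tfrc, and of Tfrc and Ireb2 overlapped.

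**Figure D1:**
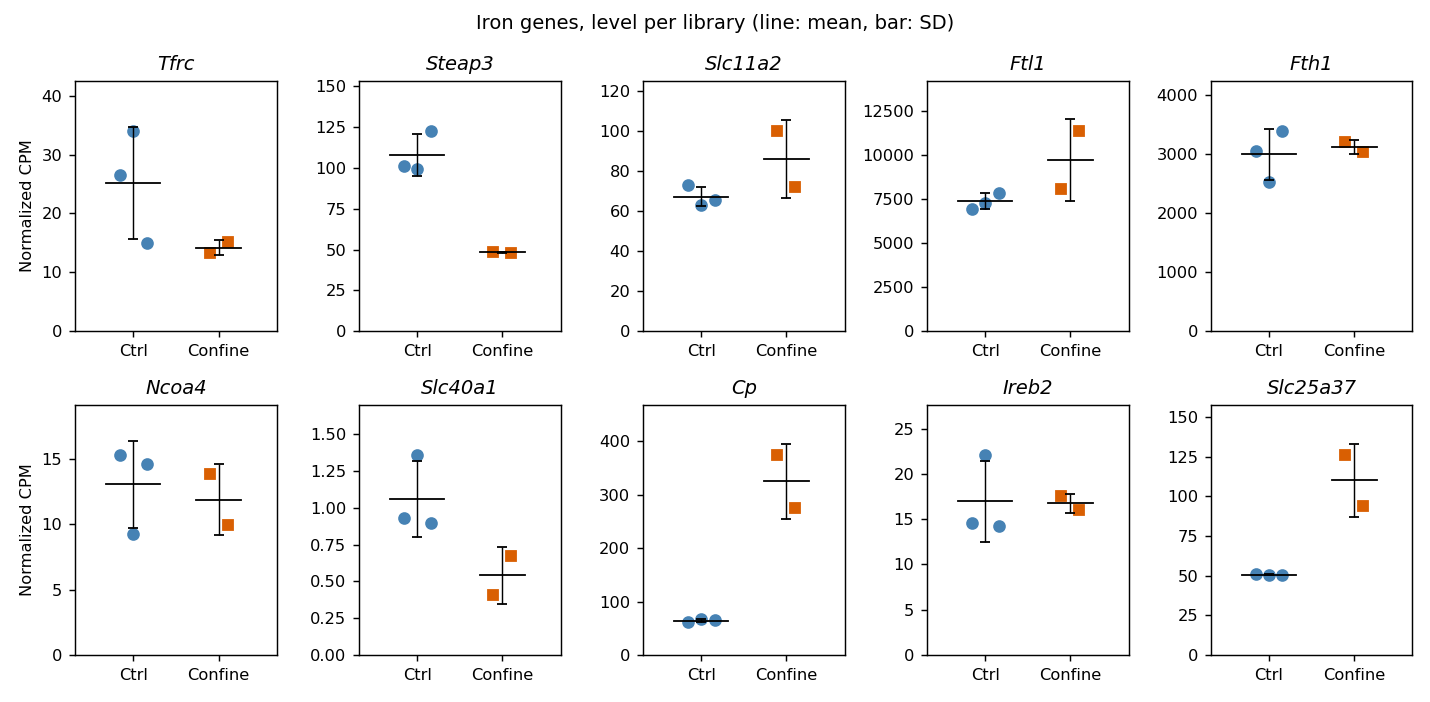
Level of each of the 10 iron genes in every library, in normalized CPM on a linear axis from 0, with circles for the 3 Ctrl and squares for the 2 Confine libraries, a line at the mean and a bar for the SD. Cp and Slc25a37 lie higher and Steap3 lies lower in both Confine libraries, while the Tfrc values of Ctrl spread from 15.0 to 34.0 CPM and reach those of Confine.

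Between Confine and Ctrl, Cp and Slc25a37 rose and Steap3 and Tfrc fell, so 4 of the 10 genes changed at an adjusted p under 0.05 (edgeR's quasi-likelihood test, Benjamini-Hochberg adjustment over all 15881 tested genes). The background is high: 23.0% of all tested genes changed, 12.8% upward and 10.2% downward. The 10 members had a median log2 fold change of 0.02, against -0.002 over all tested genes. With the study's cutoff of 1.5 on the log2 fold change added, Cp alone passed among the 10, where 8.00% of all tested genes passed, 4.89% upward. The Confine and Ctrl libraries did not overlap in 5 of the 10 genes, Cp, Slc25a37, Ftl1, Steap3 and Slc40a1, and this held for 49.5% of all tested genes. In bulk RNA, fewer cells carrying a transcript and less of it in each cell cannot be told apart.

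**Figure D2:**
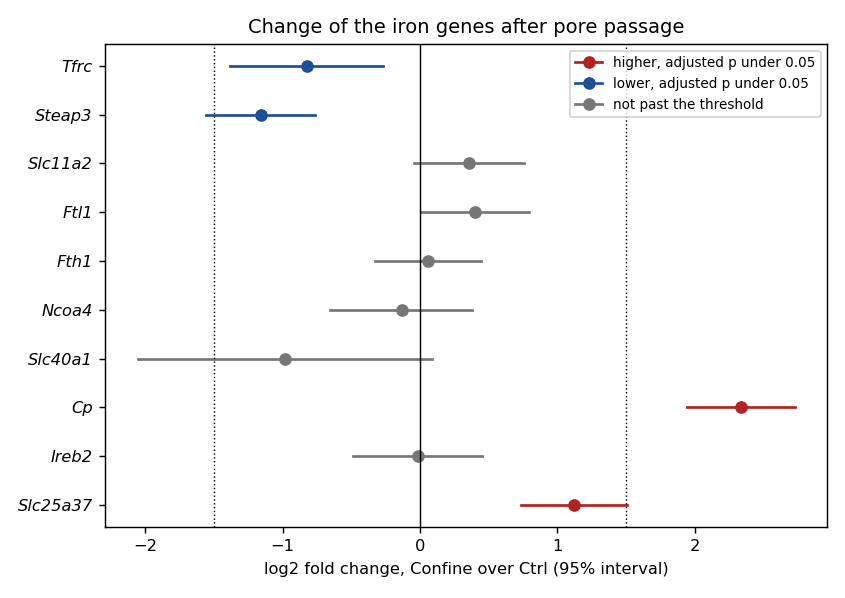
Log2 fold change of the 10 iron genes, Confine over Ctrl, as points with their 95% interval, where dotted lines mark 1.5 in either direction. Cp (2.34) lies beyond the dotted line, Slc25a37 (1.12), Tfrc (-0.83) and Steap3 (-1.16) lie between the lines with intervals that exclude 0, and Slc40a1 has the widest interval.

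Among the uptake genes, Tfrc encodes the transferrin receptor that brings iron-laden transferrin into the cell (chromosome 16, 32608920 to 32632794, plus strand, GRCm38). It had 26.5, 34.0 and 15.0 CPM in Ctrl and 13.3 and 15.1 CPM in Confine, where the counts were 766, 900, 353, 395 and 380. Ctrl replicate 3 lay at the level of the Confine libraries, so the groups overlapped. The mean was 25.2 ± 9.57 CPM (SD, n = 3) in Ctrl and 14.2 ± 1.23 CPM (SD, n = 2) in Confine, a log2 fold change of -0.83 (standard error, SE, 0.27, edgeR adjusted p = 0.0311). This call depended on single libraries: the edgeR adjusted p was 0.0526 without Ctrl replicate 1, 0.107 without Ctrl replicate 2, 0.223 without Confine replicate 2 and 0.137 without Confine replicate 3. Without Ctrl replicate 3 the log2 fold change was -1.11 (edgeR adjusted p = 3.16e-04). With limma-voom the adjusted p was 0.0553.

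Steap3 encodes the ferrireductase that reduces iron in the endosome after transferrin uptake (chromosome 1, 120190757 to 120272705, minus strand). It had 101.2, 99.6 and 122.6 CPM in Ctrl and 48.5 and 48.0 CPM in Confine, and every Confine value was below every Ctrl value. Its level was 2.23-fold lower in Confine (log2 fold change -1.16, SE 0.19, edgeR adjusted p = 1.62e-04). It stayed under the threshold in all 14 alternative fits, from -1.37 to -1.08 on the log2 scale.

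Slc11a2 encodes DMT1, the carrier that moves ferrous iron across the endosomal and plasma membranes (chromosome 15, 100387898 to 100425072, minus strand). Its values were 72.8, 63.2 and 65.7 CPM in Ctrl and 99.9 and 72.1 CPM in Confine. Only Confine replicate 2 stood apart, and replicate 3 lay within the Ctrl range. A log2 fold change of 0.36 (95% interval -0.04 to 0.75, edgeR adjusted p = 0.199) did not pass the test. The gene has transcripts with and without an IRE in their 3′ UTR, which counts per gene do not separate.

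Among the storage genes, none of the 3 members passed the test. Fth1 (chromosome 19, 9980598 to 9985098, plus strand) had 3058.5, 2535.2 and 3391.6 CPM in Ctrl and 3198.7 and 3036.3 CPM in Confine. Both Confine libraries lay inside the Ctrl range. Their log2 fold change was 0.06 (95% interval -0.33 to 0.44, edgeR adjusted p = 0.861), and scaling by library size without TMM turned it to -0.15.

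Ftl1 (chromosome 7, 45457944 to 45459884, minus strand) had 6962.0, 7298.9 and 7870.4 CPM in Ctrl and 8074.5 and 11360.2 CPM in Confine. Both Confine values lay above Ctrl, but Confine replicate 2 by little. This gave a log2 fold change of 0.40 (SE 0.19, edgeR adjusted p = 0.142). Confine replicate 3 decided its size, with 0.13 (edgeR adjusted p = 0.715) without it and 0.63 (edgeR adjusted p = 0.0178) when it stood alone for Confine. Ftl1 has near-identical copies in the genome, of which Ftl1-ps1 (99.6% identity over 910 bases) held 1.15%, Ftl2-ps 0.926% and Gm15590 0.202% as many counts as Ftl1. The 1 copy found for Fth1, Gm6977, held 25 counts in all libraries together. Adding the pseudogene rows of Ftl1 to it gave a log2 fold change of 0.40 (edgeR adjusted p = 0.139). How reads that match several copies were counted is not given in the sources used here.

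The ratio of heavy to light chain mRNA is free of library scaling. Per kb, Fth1 to Ftl1 was 0.458, 0.362 and 0.449 in Ctrl and 0.413 and 0.278 in Confine. Confine replicate 2 lay within the Ctrl range and replicate 3 below it. The mean log2 ratio differed by -0.31 between Confine and Ctrl (two-sided exact permutation test, p = 0.3, where 0.1 is the smallest p that 3 against 2 libraries allow, so this test cannot pass 0.05 whatever the values). The ratio of Tfrc to Fth1, uptake receptor over storage, was 0.00164, 0.00255 and 0.000841 in Ctrl and 0.000793 and 0.000944 in Confine. Ctrl replicate 3 lay between the Confine libraries, and the difference of -0.82 in the mean log2 ratio gave p = 0.3 in the same exact permutation test.

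**Figure D3:**
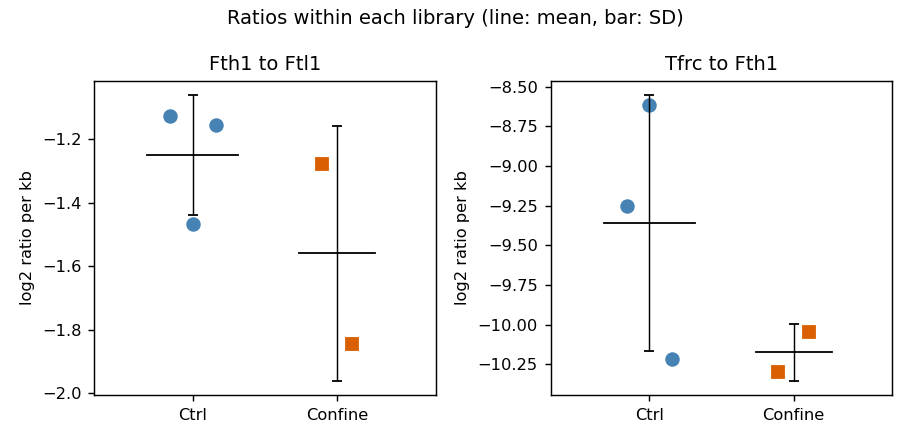
Log2 ratio of Fth1 to Ftl1 (left) and of Tfrc to Fth1 (right) per kb of transcript in every library, with circles for Ctrl, squares for Confine, a line at the mean and a bar for the SD. In both panels the groups overlap, with means of -1.25 and -1.56 on the left and of -9.36 and -10.175 on the right for Ctrl and Confine.

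Ncoa4 encodes the receptor that delivers ferritin to the lysosome and so frees its iron (chromosome 14, 32159865 to 32179855, plus strand). It had 15.3, 9.22 and 14.6 CPM in Ctrl and 13.8 and 9.93 CPM in Confine, and the groups covered nearly the same range. The log2 fold change was -0.13 (95% interval -0.65 to 0.38, edgeR adjusted p = 0.749). The processed pseudogene Gm6768 matches Ncoa4 with 99.9% identity over 1878 bases and held 12% as many counts, and with both rows summed the log2 fold change was -0.13 (edgeR adjusted p = 0.757).

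Of the export genes, Slc40a1 encodes ferroportin, the only known cellular iron exporter of mammals (chromosome 1, 45908068 to 45926523, minus strand). It was the least abundant member, with 27, 36 and 21 counts in Ctrl and 12 and 17 counts in Confine. In CPM this was 0.933, 1.36 and 0.893 against 0.405 and 0.675, and both Confine values lay below all Ctrl values. The log2 fold change of -0.98 had a wide 95% interval, from -2.05 to 0.09 (edgeR adjusted p = 0.183), and the change did not pass the test. With the identical Confine columns entered as separate samples the edgeR adjusted p was 0.035.

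Cp encodes ceruloplasmin, a copper-containing ferroxidase that oxidizes iron as it leaves through ferroportin and is otherwise known as an acute phase protein of liver (chromosome 3, 19957054 to 20009145, plus strand). It had 61.4, 66.6 and 65.2 CPM in Ctrl and 375.1 and 275.0 CPM in Confine, and the Ctrl libraries lay close together while the Confine libraries differed. The mean rose from 64.4 ± 2.65 CPM (SD, n = 3) to 325.0 ± 70.8 CPM (SD, n = 2), which is 5.05-fold (log2 fold change 2.34, SE 0.19, edgeR adjusted p = 4.59e-08). Over 14 alternative fits the log2 fold change ran from 2.097 to 2.54, each past the threshold. Hps3 overlaps Cp on the opposite strand with a mean of 211 counts against 4620 for Cp. The 5 hepatocyte markers examined, Alb and Ttr among them, had at most 2 counts in any library.

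Ireb2 encodes iron regulatory protein 2, which binds IREs and is itself degraded when iron is plentiful (chromosome 9, 54863789 to 54912530, plus strand). It had 14.6, 22.1 and 14.2 CPM in Ctrl and 17.5 and 16.0 CPM in Confine, inside the Ctrl range. The log2 fold change was -0.02 (95% interval -0.48 to 0.45, edgeR adjusted p = 0.968).

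Slc25a37 encodes mitoferrin-1, a carrier that brings iron into mitochondria (chromosome 14, 69241848 to 69285112, minus strand). It had 50.9, 50.5 and 50.5 CPM in Ctrl and 126.2 and 93.9 CPM in Confine, so both Confine libraries were far outside the narrow Ctrl range. The gene was 2.17-fold higher in Confine (log2 fold change 1.12, SE 0.18, edgeR adjusted p = 1.76e-04), and it passed the threshold in all 14 alternative fits, from 0.89 to 1.32. Confine replicate 2 was the higher Confine library for Slc25a37, as for Cp, Slc11a2, Steap3, Fth1, Ncoa4 and Ireb2. It was the lower one for Tfrc, Ftl1 and Slc40a1.

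Over all tested genes 23.0% changed. Of the 4 genes with an IRE window, Tfrc changed, and the values of Fth1, Ftl1 and Slc40a1 did not pass the test. Of the 6 without a matched window, Cp, Slc25a37 and Steap3 changed. The 6 include Slc11a2, whose known IRE the search pattern missed. These counts are too small for a comparison, and the test of a difference between both kinds of gene was not made.

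The members were placed among 84 genes of iron handling, listed by role and including the 10. Of these, 72 were tested, and 22 (30.6%, against 23.0% of all tested genes) changed, 13 upward and 9 downward, with a median log2 fold change of -0.07 over those tested. Scaling by library size without TMM moved the median of all genes by -0.208 on the log2 scale. Under it 9 listed genes were higher and 17 lower, beside 1444 and 2805 of all tested genes. Of the 22 changed genes, 9 passed the threshold in all 14 alternative fits and 13 lost it in at least 1. Lcn2, Cp, Steap4, Slc39a14, Hmox1, Slc25a37 and Abcb10 upward and Steap3 downward were among the 9.

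**Figure D4:**
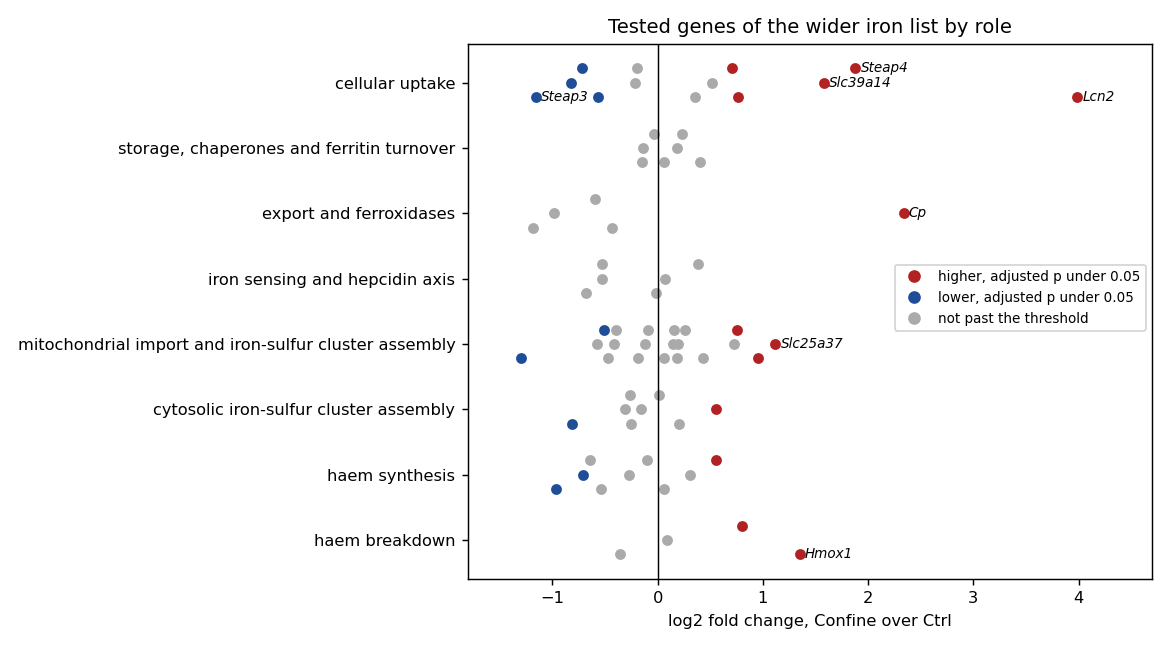
Log2 fold change, Confine over Ctrl, of the 72 tested genes of iron handling in rows by role, coloured by direction where the adjusted p was under 0.05. Changed genes sit in the uptake, export, mitochondrial, cytosolic and haem rows, and the 13 tested genes of the storage and iron sensing rows are all grey. Over all tested genes 23.0% changed.

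In cellular uptake 9 of 13 tested genes changed (69.2%, beside 23.0% of all tested genes), 5 upward and 4 downward. Lcn2 encodes lipocalin 2, which binds iron-carrying siderophores and is known as an inflammatory gene. It had 17.2, 11.3 and 11.1 CPM in Ctrl and 209.1 and 209.3 CPM in Confine, a 15.8-fold rise (log2 fold change 3.98, SE 0.22, edgeR adjusted p = 3.06e-10). Steap4, a metalloreductase of the same family as Steap3, had 4.56, 4.54 and 4.59 CPM in Ctrl and 18.5 and 15.0 CPM in Confine, 3.68-fold higher (edgeR adjusted p = 4.17e-06). Slc39a14 encodes ZIP14, a carrier of zinc and of iron not bound to transferrin, and rose 2.99-fold (edgeR adjusted p = 2.75e-06). Lrp1, an endocytic receptor that also takes up haem with haemopexin, and Scara5, a ferritin receptor, rose by 0.77 and 0.71 on the log2 scale, the latter with an edgeR adjusted p of 0.042 that held in 7 of 14 alternative fits. Beside Tfrc and Steap3, Hfe (log2 fold change -0.72, edgeR adjusted p = 0.0351), whose product binds the transferrin receptor, and Steap1 (log2 fold change -0.57, edgeR adjusted p = 0.0372) fell. They passed the threshold in 9 and 10 of those fits.

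In storage, iron chaperoning and ferritin turnover, 0 of 7 tested genes changed by edgeR, DESeq2 or limma-voom, and 1, Ftl1, had an unadjusted edgeR p under 0.05. By edgeR, 23.0% of all tested genes changed, the share to set beside each role here. Pcbp1 and Pcbp2, which hand iron to ferritin, had log2 fold changes of 0.24 and -0.15 (edgeR adjusted p = 0.376 and 0.602). In export, Cp was the 1 of 5 tested genes that changed. Flvcr1, a haem exporter, and Abcg2 had log2 fold changes of -0.59 and -0.44 (edgeR adjusted p = 0.0817 and 0.141). Heph and Hephl1, the other ferroxidases of the same family, had 0 counts in every library, which allows up to 0.128 CPM in the shallowest. In iron sensing 0 of 6 tested genes changed by edgeR or limma-voom, 1 by DESeq2, and 1 had an unadjusted edgeR p under 0.05. Aco1, the gene of iron regulatory protein 1, had a log2 fold change of -0.53 (edgeR adjusted p = 0.0534), and Fbxl5, which marks Ireb2 protein for degradation, 0.38 (edgeR adjusted p = 0.172).

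In mitochondria 5 of 20 tested genes changed, and in cytosolic cluster assembly 2 of 8, which is 25.0% each beside 23.0% of all tested genes. Abcb10, an inner membrane transporter, was 1.94-fold higher (edgeR adjusted p = 0.00133). Hscb and Lyrm4, both of cluster assembly, changed by 0.76 and -0.51 on the log2 scale with edgeR adjusted p of 0.0194 and 0.0498. These calls held in 10 and 8 of 14 alternative fits. The cytosolic genes were Nubp1, which fell (log2 fold change -0.81, edgeR adjusted p = 0.00451), and Ciao2b, which rose (0.55, edgeR adjusted p = 0.0305). Their calls held in 12 and 9 of those fits.

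In haem synthesis 3 of 9 tested genes changed (33.3%, beside 23.0% of all tested genes). Alad (log2 fold change -0.71, edgeR adjusted p = 0.00988) fell and Ppox rose (0.55, edgeR adjusted p = 0.0367), in 10 and 8 of 14 alternative fits past the threshold. Alas1, whose enzyme makes the first step in most cells, had a log2 fold change of 0.31 (edgeR adjusted p = 0.295). In haem breakdown 2 of 4 changed. Hmox1, the inducible haem oxygenase that frees iron from haem, had 299.4, 197.4 and 242.7 CPM in Ctrl and 631.4 and 624.8 CPM in Confine, a 2.55-fold rise (edgeR adjusted p = 3.98e-05). Blvrb, a biliverdin reductase, rose by 0.80 on the log2 scale (edgeR adjusted p = 0.00465), and without Confine replicate 3 its adjusted p was 0.202.

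Across the 5 libraries, the gene of the list most like Cp in log2 CPM was Steap4 (Pearson's r = 0.999), and the one most like Slc25a37 was Cp (r = 0.992), out of 71 candidates each. The gene most like Tfrc was Flvcr1 (r = 0.969), that most like Steap3 was Blvra (r = 0.982) and that most like Slc40a1 was Flvcr2 (r = 0.968). For Fth1 it was Nfs1 (r = 0.987) and for Ftl1 Blvrb (r = 0.955), for Slc11a2 Slc25a37 (r = 0.849), for Ncoa4 Nubp2 (r = 0.884) and for Ireb2 Slc25a28 (r = 0.941). The points share the contrast between groups and the library scaling, so these values describe the libraries only.

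Of 10 fibroblast markers, Col1a1, Col1a2 and Vim were abundant in all libraries, while Thy1 had at most 2 counts and Dcn at most 27. The summed level of the fibroblast markers was 8097.2 to 8846.9 CPM in Ctrl and 14207.7 to 14888.1 CPM in Confine. They did not all move together. Of the 8 fibroblast markers tested, Col1a1, Col3a1, Pdgfra and Vim were higher and Postn was lower in Confine. Col1a2, Pdgfrb and Twist1 did not pass the test. The 9 leukocyte and macrophage markers summed to 15.8 to 18.4 CPM in Ctrl and 36.3 to 41.7 CPM in Confine. Of the 5 tested, Cd68, Csf1r and Cd14 were higher and Lyz2 was lower in Confine, while the defining markers Adgre1 and Tyrobp were at 0 and Ptprc and Itgam had at most 2 counts. Of 8 erythroid markers 2 were tested and neither changed, and 3 globin genes were at 0. Epithelial and endothelial markers summed to at most 0.718 CPM in any library. The part of these markers in the iron genes was not tested.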

How the data were processed

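Poly(A) RNA of 3 Ctrl and 3 Confine samples was sequenced as dUTP libraries. The submitters' processing notes name Trim Galore 0.6.10, HISAT2 2.1.0, SAMtools 1.5, featureCounts and the build mm10. Whether counting used the strand is not given in the sources used here. The authors deposited raw counts per gene without normalization. Of 55335 identifiers, 55154 matched GENCODE M21 (GRCm38) without version. Confine columns 1 and 2 differed in 0 genes and were used once. Unused columns numbered 0.

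Genes kept by filterByExpr (15881) were scaled by TMM (factors 1.04 to 1.08 in Ctrl, 0.910 to 0.924 in Confine) and tested with edgeR 4.0.16 (R 4.3.3) quasi-likelihood, without a replicate block, with 3 residual degrees of freedom. A gene changed at a Benjamini-Hochberg adjusted p under 0.05. The fit was also run on simulated data, but the outcome is not reported here and is not offered as support for the calls. DESeq2 1.42.0 and limma 3.58.1 (voom), other scalings and filters, replicate blocks, the identical columns as separate samples and leaving out each library were alternatives. In fits with 1 Confine library, that library is assumed to vary like the others. A floor of 3 counts is 0.101 to 0.128 CPM, and covers counting error only. Copies were searched with blastn 2.17.0 (at least 100 bases, 95% identity). Per kb values use the first principal transcript.

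All 10 members are named, as are listed genes that changed beyond 1.5 on the log2 scale, the 2 largest changes in each role, and copies of members. Some listed genes that this rule names are counted but not reported here by name. The other listed genes named here were chosen after their values were seen. The members and lists were chosen with earlier results of these data known.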

Additional observations from a re-analysis of the deposited data

How the results depend on the processing

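The calls of Cp, Slc25a37 and Steap3 held in all 14 alternative fits, and with 10 members tested 3 to 5 changed. Tfrc was past the threshold in 7 of 14, from -1.11 to -0.50 on the log2 scale. With the cutoff of 1.5 on the log2 fold change, 1271 of all genes, 1 member and 4 listed genes were called. Leaving out 1 library in turn gave 2054 to 4426 changed genes in the whole table, 3 to 4 members and 9 to 23 listed genes. The lowest counts of the whole table and of the listed genes came from a fit that left 1 Confine library. Without Ctrl replicate 1, 14 listed genes changed, beside 2750 genes in the whole table. Across these fits the difference in the log2 ratio of Fth1 to Ftl1 ran from -0.595 to -0.027 and that of Tfrc to Fth1 from -1.24 to -0.44. Log2 fold changes near 0 changed sign. With library size alone that of Fth1 was -0.15. With limma-voom that of Ireb2 was 0.013. Leaving out 1 library gave -0.053 to 0.137 for Fth1, -0.391 to 0.079 for Ncoa4 and -0.15 to 0.22 for Ireb2. The cause was not tested where only the tool, scaling or block differed.

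Replicate numbers are shared between the groups. The correlation of same-numbered differences was -0.091 with the repeated library as number 2 and 0.077 as number 1. With so few libraries and the number of the repeated library unknown, this cannot settle whether the samples were paired. With the replicate block and the repeated library as number 2, 12 of 72 listed genes changed (9 upward, 3 downward), beside 2528 of all 15881 genes. Ncoa4 had a log2 fold change of 0.014 there. With the repeated library as number 1, 24 of 72 listed genes changed, beside 4933 of all 15881 genes, and Fth1 had -0.047 and Ireb2 0.22. Tfrc had edgeR adjusted p of 0.0872 and 0.0814 in these block fits. They leave 1 residual degree of freedom, so their p-values, like those of the main fit, draw mostly on the spread pooled across genes. Slc40a1 had 12 to 36 counts per library.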
